A study of Homo sapiens with 18 samples.

Results

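The cytochrome P450 genes outside family 1 were examined in 3 head and neck squamous cell carcinoma (HNSCC) lines, with and without hepatocyte growth factor (HGF). Every gene whose symbol has the form CYP, a family number, a subfamily letter and a member number was taken, and the CYP1A and CYP1B genes were left out. This gave 52 of the 19901 genes in the table, and 29 of the 52 had at least 10 raw counts in at least 3 of the 18 libraries. The other 23 reached at most 12 counts in any library and were not tested. They hold 5 of the 6 genes of steroid hormone synthesis, 10 of the 17 genes that mainly oxidise drugs and other foreign compounds, 4 of the 14 fatty acid and eicosanoid genes, 3 of the 7 cholesterol and bile acid genes and 1 of the 4 retinoid genes. All 3 vitamin D genes and the orphan CYP20A1 were above the limit.

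The study sequenced mRNA of Detroit 562, FaDu and SCC-9 cells, with 3 control libraries and 3 libraries of cells given 50 ng/mL HGF from each line, to learn which genes answer the ligand of the Met receptor. Treatment lasted 16 h by the sample records and the methods, whereas the series record gives 48 h. Detroit 562 is an established line from a metastasis of a pharyngeal tumour, FaDu comes from a primary tumour of the hypopharynx and SCC-9 from one of the tongue. SCC-9 cells were grown in another medium, with hydrocortisone, so line and medium cannot be told apart. No genetic manipulation of the lines is given. Total counts ranged from 35304770 to 44003970 per library. Epithelial markers summed to between 2015 and 11202 CPM (counts scaled to a common library size by the TMM method), while ALB, APOA1, FGB and TTR of hepatocytes had at most 8 counts and PTPRC, CD3E and MS4A1 of leukocytes at most 4 in any library. The rest of these lists was expressed. SERPINA1 of hepatocytes had 43 to 2777 counts, and CD14 and CD68 of leukocytes had 1 to 413 and 707 to 2441.

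P450 enzymes are haem proteins that insert an oxygen atom into small lipophilic molecules. Those in the endoplasmic reticulum take electrons from the reductase POR, and the mitochondrial ones take them from FDXR through a ferredoxin. The liver is rich in the enzymes that clear drugs, whereas squamous epithelia express their own set for fatty acids, retinoic acid and vitamin D, molecules that act on keratinocyte differentiation. Many of the genes are controlled by nuclear receptors, which bind paired repeats of a short DNA element together with RXR.

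Promoters are given for 4 genes that the results turn on. They are the 250 bases before the start site in RefSeq (GRCh38.p14), in lower case 5′ to 3′, with matches to the searched motifs in capitals on either strand. In the CYP26A1 promoter, chr10:93073643-93073892 on the plus strand, the first capitals are a direct repeat with 5 spacer bases, searched as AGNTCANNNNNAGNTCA, the kind of element that retinoic acid receptors bind. The second capitals are a TATA box, TATAAA. CYP4B1 at chr1:46798796-46799045, plus strand, holds a TATA box. CYP4F3 at chr19:15641062-15641311, plus strand, holds a match to TGANTCA, a loose form of the AP-1 motif that leaves the middle base open. CYP4Z1 at chr1:47066981-47067230, plus strand, holds a pair of the single elements AGTTCA.
CYP26A1: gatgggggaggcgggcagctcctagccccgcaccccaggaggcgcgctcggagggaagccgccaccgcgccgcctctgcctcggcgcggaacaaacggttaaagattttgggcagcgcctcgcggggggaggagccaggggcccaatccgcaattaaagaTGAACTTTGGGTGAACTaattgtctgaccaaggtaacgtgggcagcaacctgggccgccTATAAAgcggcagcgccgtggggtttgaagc
CYP4B1: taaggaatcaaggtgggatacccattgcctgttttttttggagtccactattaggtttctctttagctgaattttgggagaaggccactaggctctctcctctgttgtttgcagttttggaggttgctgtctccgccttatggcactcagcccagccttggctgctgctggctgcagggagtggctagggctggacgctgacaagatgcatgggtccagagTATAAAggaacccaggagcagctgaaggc
CYP4F3: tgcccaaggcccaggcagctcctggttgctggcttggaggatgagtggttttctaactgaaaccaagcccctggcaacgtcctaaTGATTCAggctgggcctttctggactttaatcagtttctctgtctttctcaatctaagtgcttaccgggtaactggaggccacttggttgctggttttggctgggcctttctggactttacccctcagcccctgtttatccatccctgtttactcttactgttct
CYP4Z1: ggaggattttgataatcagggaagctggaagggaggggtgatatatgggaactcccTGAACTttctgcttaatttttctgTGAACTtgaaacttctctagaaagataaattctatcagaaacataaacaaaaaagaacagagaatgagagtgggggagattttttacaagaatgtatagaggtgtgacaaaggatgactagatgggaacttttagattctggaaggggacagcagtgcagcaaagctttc
The set of RefSeq promoters used held 23 of the 29 genes, with 30 promoters of 300 bases in all, counting 50 bases after the start. CYP2C18, CYP2D6, CYP4F12, CYP7B1, CYP24A1 and CYP27B1 had no entry in this set and were not searched. The repeat with 5 spacers was in 1 of the 30, that of CYP26A1 at 90 bases before the start, and in 0.0797% of all 35116 promoters of this length. The repeat with 3 spacers, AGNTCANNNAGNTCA, the kind bound by the vitamin D receptor, was in none of the 30 and in 0.0598% of all. Of the vitamin D genes only CYP2R1 was searched, so this says nothing of CYP24A1 and CYP27B1. The letters of a TATA box were in 6 of the 30, those of CYP2E1, CYP3A7, CYP4B1, CYP4X1, CYP26A1 and CYP26B1, and in 11.5% of all. Their first base lay at -31 to -29 from the start in CYP2E1, CYP3A7, CYP4B1 and CYP26A1. It lay farther off in CYP26B1, at -248, and in CYP4X1, at -219 and -161. Matches to TGANTCA, with any middle base, were in 3, those of CYP3A7, CYP4F3 and CYP4F11, and in 7.71% of all. The middle base was A in CYP3A7, T in CYP4F3 and CYP4F11, and C or G in none of them. The single element was in 4, those of CYP3A5, CYP4Z1, CYP26A1 and CYP27A1, and in 10.4% of all, and in CYP26A1 it lies within the repeat. These matches are letters in a window and were not tied to any change.

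Upon HGF stimulation most of the P450 genes that changed in Detroit 562 fell. Calls required an adjusted p under 0.1 in the quasi-likelihood test of edgeR together with a log2 fold change of 0.4 or more in either direction. Of the 29 genes, 13 were called lower and 1, CYP27B1, was called higher, which is 48.3% against 17.9% of all 15475 genes tested (11.7% lower and 6.16% higher). Their median log2 fold change was -0.49, beside -0.01 over all genes. With the same-numbered replicates as a block, 16 were called (21.5% of all genes), 14 lower (14.4%) and 2 higher (7.13%), the added ones being CYP3A5 and CYP26B1. CYP2C18, CYP3A7 and CYP4Z1 reached the count limit only with the Detroit 562 controls, and of the 26 genes that reached it without those controls 12 (46.2%) were called. The call count was 9 when control replicate 1 was left out. In 15 genes all 3 HGF libraries lay below all 3 controls, as did 20.1% of all genes, and in CYP27B1 alone all lay above, as did 18.1%.

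FaDu and SCC-9 gave no call among the 29 genes in edgeR, where 0.0258% and 0% of all genes were called. At an unadjusted p below 0.05 there were 4 of the 29 in FaDu (8.06% of all genes) and 1 in SCC-9 (4.14%). With the replicate block 8 of the 29 were called in FaDu, 6 lower (3.6% of all genes) and 2 higher (2%), against 5.6% in both directions, and 0 in SCC-9, against 1.97%. DESeq2 called 1 in FaDu, CYP4F3 (0.426% of all genes), and 0 in SCC-9 (0.123%). By difference of responses, edgeR called 0 genes between Detroit 562 and FaDu (0.239% of all genes), 1 between Detroit 562 and SCC-9 (0.924%) and 0 between FaDu and SCC-9 (0%). At an unadjusted p below 0.05 these were 3 (11.6%), 5 (15.4%) and 1 (2.18%). The blocked fit called 3 (19.1%), 7 (26.9%) and 0 (1.32%), and DESeq2 called 1 (1.73%), 3 (4.2%) and 0 (0.0323%).

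**Figure D1:**
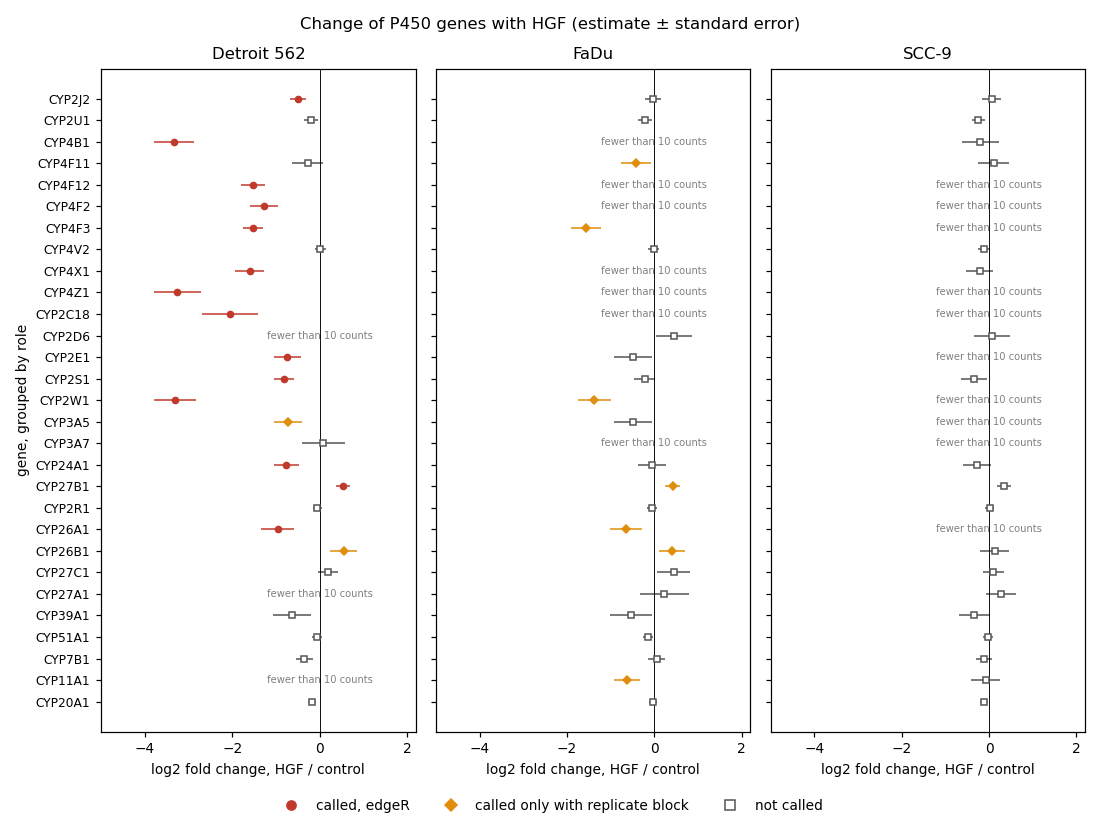
Log2 fold change of HGF-treated over control cells (x axis) for the 29 P450 genes (y axis, grouped by role) in each line, as the edgeR estimate with its standard error. Filled circles are called in edgeR (14 in Detroit 562, 0 in the others), diamonds only with the replicate block, open squares in neither. Genes under 10 counts in all 6 libraries of a line carry no point, which leaves out CYP4B1 in FaDu, called with the block.

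Markers moved with HGF in Detroit 562 too. The 7 epithelial markers summed to between 2897 and 4151 CPM in control and between 2015 and 3100 CPM in HGF-treated libraries. KRT5 (log2 -0.90, edgeR adjusted p = 0.0451) and CDH1 (log2 -0.49, edgeR adjusted p = 0.00364) were called lower, and KRT5 went from a mean of 2105 to 1129 CPM. The other 5 were not called. TP63 (log2 -0.37, edgeR adjusted p = 0.0482), EPCAM (log2 0.21, edgeR adjusted p = 0.0968) and SFN (log2 0.22, edgeR adjusted p = 0.0637) stayed under the fold limit, and KRT14 and KRT17 had log2 -0.20 and 0.10. CD68 was called higher (log2 0.66, edgeR adjusted p = 0.0410), and the leukocyte list summed to between 20.3 and 40.5 CPM and then to between 37.4 and 56.2 CPM, with PTPRC, CD3E and MS4A1 at 4 counts or fewer. Fibroblast markers summed to between 29.8 and 54.3 CPM in control and between 15.0 and 27.6 CPM with HGF, with LUM at 2 counts or fewer, while COL1A1 was called lower (log2 -0.77, edgeR adjusted p = 0.00474). The part of these in the P450 results was not tested. In bulk RNA, fewer cells of a kind and less RNA per cell cannot be told apart.

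Among untreated lines most of the genes differed. In edgeR, Detroit 562 and FaDu differed in 21 of the 29 genes (72.4%, against 61% of all genes), Detroit 562 and SCC-9 in 27 (93.1%, against 65.4%) and FaDu and SCC-9 in 21 (72.4%, against 64.2%). Detroit 562 was called higher than FaDu in 17 of the 29 (58.6%, against 31.2% of all genes) and higher than SCC-9 in 18 (62.1%, against 31.4%). FaDu was called higher than SCC-9 in 12 (41.4%, against 30.7%). The shares of the P450 genes were above those of all genes in each of these comparisons, which share their control libraries. CYP2C18, CYP3A7, CYP4F2, CYP4F12 and CYP4Z1 reached the count limit in Detroit 562 libraries only. The limit thus favoured a higher level of these genes in that line, and the shares without them were not computed. Summed over the 29 genes, the level was between 518 and 614 CPM in Detroit 562, between 188 and 248 CPM in FaDu and between 186 and 191 CPM in SCC-9. With HGF the sum was between 380 and 446 CPM in Detroit 562, which lies below its controls. In FaDu it was between 178 and 236 CPM and in SCC-9 between 188 and 194 CPM, both overlapping their controls.

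Levels were divided by kilobases of exon, to set genes roughly beside each other. The counts also hold reads from introns and from overlapping genes, such as LRRD1 over CYP51A1 and METTL1 over CYP27B1. The order between genes is therefore approximate. By this measure CYP24A1 led in Detroit 562 with 51.3 ± 6.17 CPM per kb (SD, n = 3). CYP51A1 followed with 40.8 ± 0.407, CYP2S1 with 22.8 ± 4.88 and CYP4F3 with 5.12 ± 0.897 CPM per kb. The first 3 were each above the next in every library, whereas CYP4F3 overlapped CYP4F11 at 4.42 ± 1.95 CPM per kb. In FaDu the order was CYP51A1 with 25.1 ± 4.72, CYP2S1 with 8.04 ± 0.6 and CYP4F11 with 4.40 ± 1.38 CPM per kb. The last of these overlapped CYP26B1 at 3.87 ± 1.72 CPM per kb. SCC-9 had CYP51A1 at 17.9 ± 0.884, CYP27B1 at 8.31 ± 1.36, CYP4F11 at 4.38 ± 0.526 and CYP2R1 at 2.98 ± 0.116 CPM per kb, each above the next in every library. The 8 genes with the widest range between untreated lines were CYP4F3, CYP4X1, CYP4F12, CYP4B1, CYP26A1, CYP24A1, CYP2W1 and CYP11A1.

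**Figure D2:**
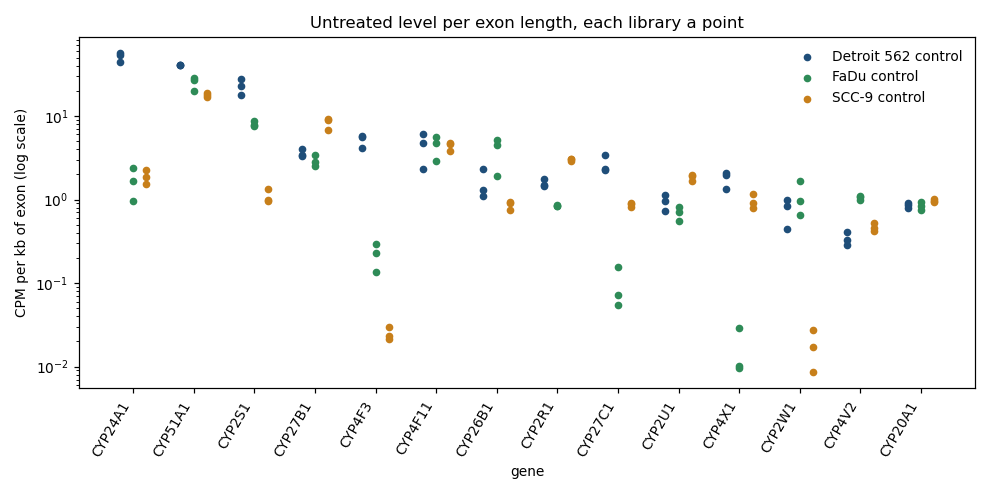
Level per exon length in untreated cells (y axis, CPM per kb, log scale) of the P450 genes that rank among the first 8 in any line (x axis), each point 1 of 3 libraries, coloured by line. CYP24A1 stands at 51.3 CPM per kb in Detroit 562 and at 1.66 and 1.88 in FaDu and SCC-9, while CYP4F11 is at 4.42, 4.40 and 4.38.

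Of the 10 fatty acid and eicosanoid genes, 7 were called in Detroit 562, all lower, where 11.7% of all genes were called lower. Those called include CYP4Z1, which reached the count limit only with the Detroit 562 controls, so a fall was favoured by the limit. They also include CYP4F2 and CYP4F12, which reached it through Detroit 562 libraries only. Differences between the roles were not tested. CYP4B1 (chr1:46757838-46819413, plus strand), which oxidises fatty acids and some foreign compounds and whose promoter is printed above, stood at 6.60, 6.19 and 2.40 CPM in Detroit 562 controls and at 0.421, 0.681 and 0.396 CPM with HGF. Its groups did not overlap, and control replicate 3 was the lowest control. The fall was 10.1-fold (log2 -3.34, SE 0.456, edgeR adjusted p = 0.000371). SCC-9 had 0.837, 1.26 and 1.61 CPM in control and 0.837, 0.968 and 1.42 CPM with HGF, which overlap. Untreated Detroit 562 exceeded SCC-9 by log2 2.04 (edgeR adjusted p = 0.000224). FaDu had 8, 0 and 2 raw counts untreated, then 1, 0 and 0 with HGF, at or under the floor of 3 counts in most libraries, so the call of the blocked fit there (edgeR adjusted p = 0.0881) is given with no fold. The response in Detroit 562 differed from that in SCC-9 by log2 -3.14 (SE 0.629, edgeR adjusted p = 0.0490). That call was lost without any 1 of 8 libraries, with log2 values of -2.89 to -3.21 and edgeR adjusted p of 0.10 to 0.170, the highest without Detroit 562 control replicate 1. With the replicate block the edgeR adjusted p was 5.08e-05.

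CYP4Z1 and CYP4X1 are neighbours of CYP4B1 on chromosome 1 and encode enzymes that act on fatty acids, the second also on the endocannabinoid anandamide. CYP4Z1 (chr1:47067488-47118319, plus strand) had 75, 71 and 54 raw counts in Detroit 562 controls and 4, 5 and 10 with HGF, 1.77, 1.93 and 1.45 CPM against 0.0990, 0.142 and 0.304 CPM. Every HGF library was below every control, and the gene had at most 6 counts in FaDu and SCC-9. Its fold change was 9.57-fold lower (log2 -3.26, SE 0.535, edgeR adjusted p = 0.00123), and 20.7% of its exonic 75-base stretches occur in the pseudogene CYP4Z2P, so reads may have been shared. CYP4X1 (chr1:47023568-47050751, plus strand) had 4.81, 5.11 and 3.29 CPM in Detroit 562 controls and 1.04, 2.16 and 1.16 CPM with HGF. These groups did not overlap either, and the fall was 3.04-fold (log2 -1.60, SE 0.321, edgeR adjusted p = 0.00324). In SCC-9 CYP4X1 stood at 2.22, 2.88 and 1.94 CPM in control and at 2.06, 2.5 and 1.5 CPM with HGF, and in FaDu it had at most 3 counts. Untreated Detroit 562 exceeded SCC-9 by log2 0.91 (edgeR adjusted p = 0.0130).

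The response of CYP4X1 differed between Detroit 562 and SCC-9 by log2 -1.41 (edgeR adjusted p = 0.00417) with the replicate block. Without the block it was not called (edgeR adjusted p = 0.181), except when Detroit 562 control replicate 3 (edgeR adjusted p = 0.0716) or HGF replicate 2 (edgeR adjusted p = 0.0997) was left out. The counts of CYP4Z1 in SCC-9 were too few to measure a response there. The 3 genes lie on the plus strand within a stretch that runs from 46757838 to 47118319 on chromosome 1.

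Of the CYP4F cluster on chromosome 19, 4 members were above the count limit. CYP4F3 (chr19:15640897-15662825, plus strand), known for inactivating leukotriene B4, had 31.7, 30.5 and 22.6 CPM in Detroit 562 controls and 8.49, 11.3 and 9.61 CPM with HGF. Groups were well apart, and the fall was 2.88-fold (log2 -1.53, SE 0.225, edgeR adjusted p = 0.000693). In FaDu it had 1.61, 1.28 and 0.751 CPM in control and 0.301, 0.603 and 0.339 CPM with HGF, also without overlap. The FaDu change was log2 -1.55 (SE 0.342), with an edgeR adjusted p of 0.307 without the block and 0.00464 with it, and DESeq2 called it (adjusted p = 0.00287). It was called in edgeR without FaDu control replicate 3 (log2 -1.81, edgeR adjusted p = 0.0603) and without FaDu HGF replicate 2 (log2 -1.91, edgeR adjusted p = 0.0813). SCC-9 had at most 8 counts, and no other P450 gene had as wide a range between untreated lines, with Detroit 562 above FaDu by log2 4.54 (edgeR adjusted p = 1.53e-10) and above SCC-9 by log2 7.64 (edgeR adjusted p = 5.18e-12).

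CYP4F12 (chr19:15672757-15697174, plus strand), a fatty acid hydroxylase beside it, had 3.98, 5.38 and 4.77 CPM in Detroit 562 controls and 1.16, 1.85 and 1.89 CPM with HGF. CYP4F2 (chr19:15878023-15898120, minus strand), which hydroxylates arachidonic acid and vitamin K, had 2.00, 1.63 and 1.10 CPM in control and 0.569, 0.653 and 0.761 CPM with HGF. Neither overlapped between groups, and both had at most 4 counts in every library of FaDu and SCC-9. They fell 2.89-fold (log2 -1.53, SE 0.275, edgeR adjusted p = 0.00195) and 2.40-fold (log2 -1.26, SE 0.320, edgeR adjusted p = 0.0102). Of the 75-base stretches of CYP4F2, 6.09% occur in CYP4F3, and of those of CYP4F3, 3.64% occur in CYP4F2. CYP4F12 and CYP4F2 reached the count limit through Detroit 562 libraries only.

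CYP4F11 (chr19:15912367-15934867, minus strand), a fatty acid and vitamin K hydroxylase, did not share these differences between lines. Its levels were 23.0, 17.8 and 8.62 CPM in untreated Detroit 562, 17.6, 20.8 and 10.8 CPM in FaDu and 14.1, 17.8 and 17.1 CPM in SCC-9, and no pair of lines was called, with log2 differences of 0.01, 0.01 and 0.00. Replicate 3 was the lowest in both Detroit 562 and FaDu. With HGF it stood at 16.3, 15.2 and 9.49 CPM in Detroit 562 and at 10.8, 19.1 and 7.04 CPM in FaDu, overlapping the controls. FaDu was called lower only with the replicate block (log2 -0.46, edgeR adjusted p = 0.0205, beside 0.742 without), and each of its 3 HGF libraries was below its own control. SCC-9 had 15.2, 17.3 and 20.2 CPM with HGF, and its change of log2 0.11 was not called.

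CYP2J2, an epoxygenase of arachidonic acid, had 3.44, 3.21 and 3.10 CPM in Detroit 562 controls and 2.38, 2.30 and 2.25 CPM with HGF. The libraries of each group lay close together and apart from the other, and the change was log2 -0.49 (SE 0.178, edgeR adjusted p = 0.0522). The call was lost, with edgeR adjusted p of 0.105 to 0.170, without control replicate 1 or 2 or HGF replicate 2 or 3, the highest without control replicate 1 (log2 -0.45). In FaDu its level was between 1.48 and 2.27 CPM and in SCC-9 between 0.550 and 0.874 CPM, in both with overlap of the groups. Epoxides made by such enzymes are opened by epoxide hydrolases, of which EPHX1 (log2 -0.86, edgeR adjusted p = 0.0448) and EPHX2 (log2 -0.80, edgeR adjusted p = 0.0546) were called lower in Detroit 562. EPHX3 had at most 3 counts there and is given no fold. The remaining fatty acid genes, CYP2U1 and CYP4V2, were called in no line with HGF. CYP4V2, mutated in a crystalline retinal dystrophy, was highest in FaDu, at 10.4 ± 0.6 CPM beside 3.32 ± 0.639 in Detroit 562 and 4.58 ± 0.519 in SCC-9, all untreated (SD, n = 3). KLKB1 overlaps CYP4V2 on the same strand by 4478 bases and had 19 to 401 counts, so shared reads count for both.

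**Figure D3:**
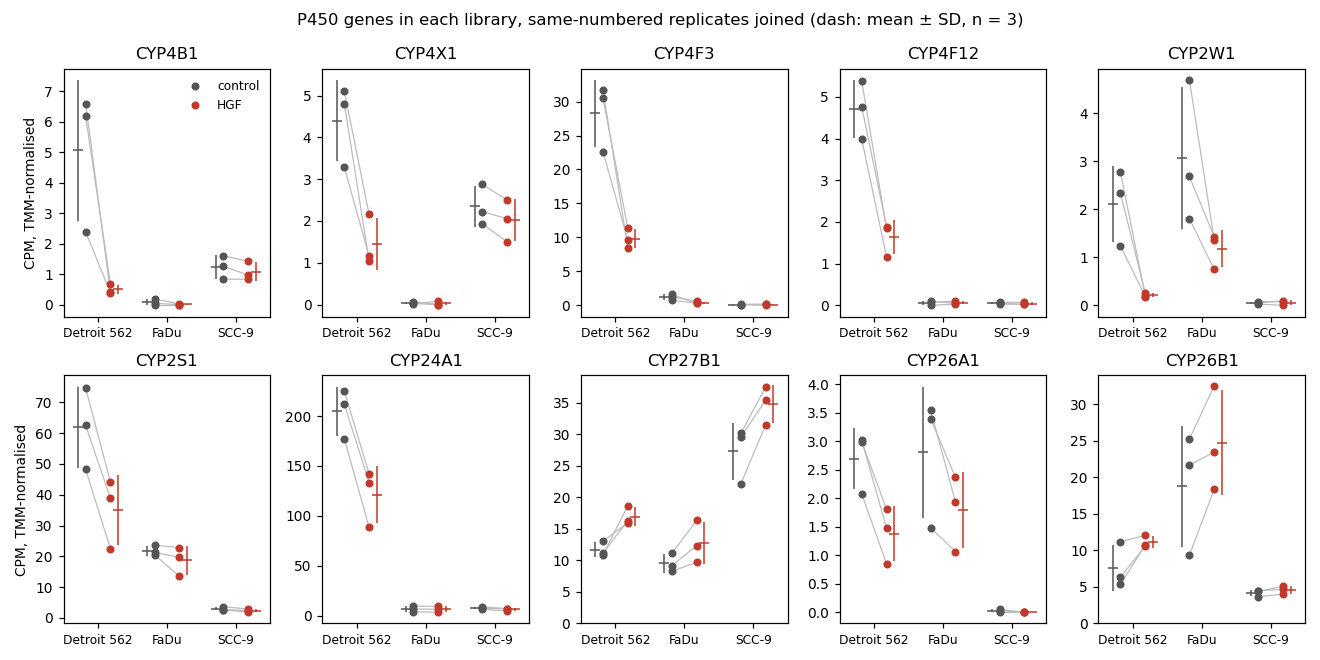
Level (y axis, TMM-normalised CPM) of 10 P450 genes in each library of the 3 lines (x axis), control in grey and HGF in red, with lines joining replicates of the same number and dashes giving the mean and SD of 3 libraries. In Detroit 562 CYP4B1 lies between 2.40 and 6.60 CPM in control and between 0.396 and 0.681 CPM with HGF, while CYP27B1 lies between 10.9 and 13.1 CPM and then between 15.9 and 18.7 CPM.

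Of the 7 genes for foreign compounds, 4 were called lower in Detroit 562 (11.7% of all genes), and CYP3A5 was called lower too with the block (14.4%). Those called include CYP2C18, which reached the count limit only with the Detroit 562 controls. CYP2W1 (chr7:983199-989640, plus strand), found in the fetal gut and in colorectal tumours, had 118, 86 and 46 raw counts in Detroit 562 controls and 8, 9 and 6 with HGF, 2.78, 2.34 and 1.24 CPM against 0.198, 0.255 and 0.183 CPM. In FaDu it had 4.70, 2.69 and 1.81 CPM in control and 1.37, 1.43 and 0.750 CPM with HGF. HGF libraries were below all controls in both lines, and SCC-9 had at most 4 counts. The fall was 9.89-fold in Detroit 562 (log2 -3.31, SE 0.485, edgeR adjusted p = 0.000673). In FaDu it was log2 -1.37 (SE 0.375, edgeR adjusted p = 0.436), called with the block (log2 -1.34, edgeR adjusted p = 0.000620) and without FaDu control replicate 3 (log2 -1.64, edgeR adjusted p = 0.0993). The response in Detroit 562 was larger than that in FaDu by log2 -1.97 (edgeR adjusted p = 0.00478) with the block, beside an edgeR adjusted p of 0.277 without it, and of 0.0896 without both the block and Detroit 562 control replicate 3. Untreated Detroit 562 and FaDu were not called different (log2 -0.53, SE 0.360, edgeR adjusted p = 0.198).

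CYP2S1 (chr19:41193049-41207539, plus strand), a P450 of epithelia, had 74.7, 62.6 and 48.3 CPM in Detroit 562 controls and 44.2, 38.8 and 22.5 CPM with HGF. Replicate 3 was the lowest of each group, and the groups did not overlap. The change was log2 -0.81 (SE 0.226, edgeR adjusted p = 0.0163). FaDu had 21.3, 23.6 and 20.5 CPM in control and 19.7, 22.8 and 13.5 CPM with HGF, and SCC-9 had 2.61, 2.71 and 3.64 CPM and then 1.84, 2.36 and 2.82 CPM. Both lines overlapped between groups and were not called (log2 -0.22 and -0.35). With the block the response of Detroit 562 was larger than that of FaDu by log2 -0.60 (edgeR adjusted p = 0.0120) and than that of SCC-9 by log2 -0.49 (edgeR adjusted p = 0.0877). Neither difference was called without the block. Untreated, each line differed from the others, Detroit 562 from SCC-9 by log2 4.37 (edgeR adjusted p = 2.16e-10).

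The remaining genes of this role were low, at 1.14 CPM or less in every library. CYP2C18, a minor member of the CYP2C cluster, had 15, 16 and 10 raw counts in Detroit 562 controls and 3, 2 and 4 with HGF. All HGF libraries were lower (log2 -2.04, SE 0.637, edgeR adjusted p = 0.0283), but the gene reached the count limit only through those 3 controls, and DESeq2 gave it no adjusted p. RP11-400G3.5 lies over CYP2C18 on the same strand for 48037 bases and had 1 to 23 counts, so its reads may be shared. Of the 75-base stretches of CYP2C18, 37.2% occur in the gene that GENCODE 44 places over it on that strand. CYP2E1, which oxidises ethanol, had 41, 26 and 34 raw counts in the Detroit 562 controls, 23, 13 and 20 with HGF, and at most 12 in the other lines. Its groups did not overlap (log2 -0.74, SE 0.311, edgeR adjusted p = 0.0896), but the call was lost when any 1 of 11 libraries was left out, among them each of the 6 of Detroit 562, with edgeR adjusted p of up to 0.261 (log2 -0.55, without HGF replicate 2), and DESeq2 did not call it (adjusted p = 0.170). SCART1 overlaps CYP2E1 on the same strand by 3153 bases and had 26 to 171 counts, so shared reads count for both.

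CYP3A5, a drug-oxidising enzyme outside the liver too, had 32, 39 and 41 raw counts in the Detroit 562 controls and 20, 19 and 24 with HGF. The groups did not overlap, and the change of log2 -0.73 (SE 0.325) had an edgeR adjusted p of 0.111 without the block and 0.0269 with it. It was also called when FaDu control replicate 1 (edgeR adjusted p = 0.0908) or FaDu HGF replicate 2 (edgeR adjusted p = 0.0777) was left out. With the block its response differed from that of SCC-9 by log2 -1.51 (edgeR adjusted p = 0.0809), where it had at most 9 counts. CYP3A7, the form of fetal liver, and CYP2D6 were not called with HGF in any line, and 41.4% and 39.6% of their 75-base stretches occur in other genes.

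The vitamin D genes were expressed in all 3 lines, and the enzyme that makes the hormone and the one that destroys it changed in opposite directions in Detroit 562. CYP24A1 (chr20:54153449-54173973, minus strand), which breaks down calcitriol and its precursor, had 225, 212 and 177 CPM in Detroit 562 controls and 142, 133 and 88.3 CPM with HGF. CYP27B1 (chr12:57762334-57768986, minus strand), which makes calcitriol, had 10.9, 11.2 and 13.1 CPM in control and 18.7, 16.3 and 15.9 CPM with HGF. Neither overlapped between groups, with CYP24A1 lower in each HGF library and CYP27B1 higher. CYP24A1 changed by log2 -0.76 (SE 0.280, edgeR adjusted p = 0.0570) and CYP27B1 by log2 0.54 (SE 0.167, edgeR adjusted p = 0.0283). CYP24A1 was not called without control replicate 1 (log2 -0.68, edgeR adjusted p = 0.173), control replicate 2 (log2 -0.73, edgeR adjusted p = 0.135) or HGF replicate 3 (log2 -0.57, edgeR adjusted p = 0.200). CYP27B1 was not called without control replicate 1 (log2 0.49, edgeR adjusted p = 0.119). METTL1 overlaps CYP27B1 on its strand by 516 bases and had 503 to 1669 counts, so shared reads count for both. The part of METTL1 reads in the change of CYP27B1 was not tested.

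In the other lines CYP27B1 had the same sign. FaDu had 9.19, 8.29 and 11.1 CPM in control and 12.4, 9.71 and 16.4 CPM with HGF, and SCC-9 had 29.6, 30.1 and 22.1 CPM and then 35.4, 37.5 and 31.5 CPM. In every same-numbered pair of the 3 lines the HGF library was the higher, while the groups overlapped in FaDu only. The FaDu change of log2 0.42 had an edgeR adjusted p of 0.578 without the block and 0.0114 with it. The SCC-9 change of log2 0.35 (SE 0.161) was the 1 with an unadjusted p below 0.05 in that line, and was not called in either fit. SCC-9 had the highest untreated level, with log2 differences of -1.22 for Detroit 562 minus SCC-9 (edgeR adjusted p = 4.11e-06) and -1.52 for FaDu minus SCC-9 (edgeR adjusted p = 3.81e-07).

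CYP24A1 stood far lower in the other lines, at 6.62, 9.39 and 3.85 CPM in untreated FaDu and at 6.17, 7.41 and 8.92 CPM in SCC-9. With HGF the values were 6.35, 9.38 and 3.46 CPM and 4.85, 6.90 and 6.90 CPM, overlapping the controls. Detroit 562 exceeded FaDu by log2 4.95 (edgeR adjusted p = 8.64e-10) and SCC-9 by log2 4.77 (edgeR adjusted p = 1.02e-09), and FaDu and SCC-9 were not called different (log2 -0.18, SE 0.319). With the block the response of Detroit 562 was larger than that of FaDu by log2 -0.72 (edgeR adjusted p = 0.00161) and than that of SCC-9 by log2 -0.51 (edgeR adjusted p = 0.00675). CYP2R1, which makes the precursor calcidiol, was not called with HGF, with log2 changes of -0.05, -0.06 and 0.01 (SE 0.104, 0.109 and 0.0991). Its untreated level was 13.4 ± 0.520 CPM in SCC-9, 7.02 ± 0.758 in Detroit 562 and 3.82 ± 0.0386 in FaDu (SD, n = 3), and each pair of lines was called. VDR, the calcitriol receptor, did not reach the fold limit in Detroit 562 (log2 0.20, edgeR adjusted p = 0.0465).

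Retinoid genes gave opposite signs for the CYP26 enzymes, both of which degrade retinoic acid. CYP26A1 (chr10:93073475-93077890, plus strand), whose promoter holds the repeat shown above, had 2.99, 3.01 and 2.07 CPM in Detroit 562 controls and 1.81, 1.48 and 0.852 CPM with HGF. In FaDu it had 3.40, 3.54 and 1.48 CPM in control and 2.36, 1.94 and 1.06 CPM with HGF, and in SCC-9 it had at most 2 counts in any library. Groups were apart in Detroit 562 and overlapped in FaDu, where each HGF library was below its own control. The changes were log2 -0.96 (SE 0.375, edgeR adjusted p = 0.0747) in Detroit 562 and log2 -0.65 (SE 0.362, edgeR adjusted p = 0.641) in FaDu, the latter called with the block (edgeR adjusted p = 0.0246). The Detroit 562 call was lost without control replicate 1 or 2 or HGF replicate 2 or 3, with edgeR adjusted p of 0.123 to 0.238, the highest without HGF replicate 3 (log2 -0.71). Untreated Detroit 562 and FaDu differed by log2 -0.06 (SE 0.355), which was not called.

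CYP26B1 (chr2:72129238-72148038, minus strand) had 5.35, 6.33 and 11.1 CPM in Detroit 562 controls and 10.7, 10.6 and 12.1 CPM with HGF. FaDu had 9.33, 25.2 and 21.7 CPM and then 18.3, 32.5 and 23.4 CPM. In both lines each HGF library was above its own control, but the groups overlapped, through control replicate 3 in Detroit 562. The changes were log2 0.55 (edgeR adjusted p = 0.207) and log2 0.40 (edgeR adjusted p = 0.707), called with the block at edgeR adjusted p of 0.00750 and 0.0484. Detroit 562 was also called without its control replicate 3 (log2 0.93, edgeR adjusted p = 0.0383) and without FaDu control replicate 1 (log2 0.55, edgeR adjusted p = 0.0981). SCC-9 had 3.66, 4.49 and 4.38 CPM in control and 4.02, 4.65 and 5.08 CPM with HGF, with overlap and no call (log2 0.13). CYP27C1, the retinol desaturase of skin, was called in no line with HGF, and untreated it stood at 13.9 ± 3.37 CPM in Detroit 562, 4.55 ± 0.287 in SCC-9 and 0.494 ± 0.287 in FaDu (SD, n = 3).

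**Figure D4:**
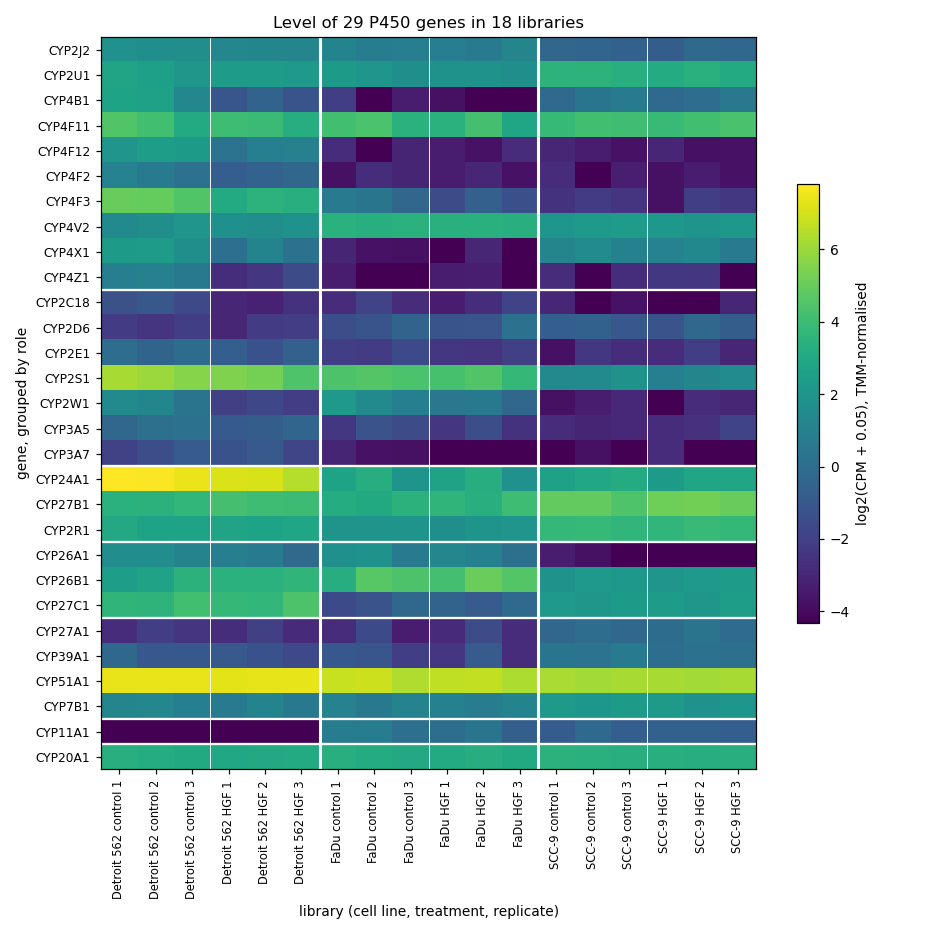
Level of the 29 P450 genes (y axis, grouped by role) in the 18 libraries (x axis, by line, treatment and replicate), coloured by log2(CPM + 0.05). CYP51A1 is high throughout, between 70.1 and 172 CPM, and CYP11A1 has no count in the 6 Detroit 562 libraries.

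Among the 4 cholesterol and bile acid genes none was called with HGF in any line by edgeR or DESeq2 over all libraries, and none had an unadjusted p below 0.05 in edgeR without the block, as 38.4% of all genes had in Detroit 562. CYP7B1 was called lower in Detroit 562 when HGF replicate 2 was left out (log2 -0.56, edgeR adjusted p = 0.0618, beside log2 -0.35 and 0.195 with all libraries). CYP51A1 (chr7:92112151-92142952, minus strand), the lanosterol demethylase of cholesterol synthesis, had 170, 168 and 172 CPM in Detroit 562 controls and 158, 165 and 166 CPM with HGF. The groups did not overlap, yet the change was small (log2 -0.06, SE 0.114, edgeR adjusted p = 0.740). Untreated it was at 104 ± 19.7 CPM in FaDu and 74.5 ± 3.69 CPM in SCC-9 (SD, n = 3), and each pair of lines was called. LRRD1 lies over CYP51A1 on the same strand for 30794 bases and had 2911 to 7229 counts, so the counts of both hold the same reads. Of 9 other genes listed for the pathway from squalene to cholesterol, 4 were called lower in Detroit 562, beside 11.7% of all genes. They were LSS (log2 -0.41), TM7SF2 (log2 -0.63), MSMO1 (log2 -0.54) and HSD17B7 (log2 -0.42). CYP7B1, which hydroxylates oxysterols, CYP39A1 and the mitochondrial CYP27A1 were each highest in untreated SCC-9, at 4.46 ± 0.329, 1.32 ± 0.183 and 0.844 ± 0.0957 CPM (SD, n = 3).

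CYP11A1 (chr15:74337759-74367740, minus strand), the mitochondrial enzyme that cuts the side chain of cholesterol in steroid hormone synthesis, had 0 counts in all 6 Detroit 562 libraries. FaDu had 72, 66 and 44 in its controls, then 43, 51 and 24 with HGF, and SCC-9 had 22, 35 and 22 and then 26, 27 and 23. With 3 counts per library as the floor, untreated FaDu was at least 18.9-fold higher than Detroit 562, and SCC-9 at least 8.24-fold higher. The FaDu groups overlapped, each HGF library being below its own control, and the change of log2 -0.62 (SE 0.298) was called only with the block (log2 -0.64, edgeR adjusted p = 0.0651, beside 0.620 without). Untreated FaDu exceeded SCC-9 by log2 1.19 (edgeR adjusted p = 0.00368). The orphan CYP20A1, of unknown substrate, was at 9.0 ± 0.624, 8.92 ± 0.913 and 10.4 ± 0.501 CPM in untreated Detroit 562, FaDu and SCC-9 (SD, n = 3). Its differences stayed under the fold limit in all pairs of lines, and HGF moved it by at most log2 -0.18, which was not called.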

How the data were processed

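The deposited values are raw counts of reads per gene, whole numbers without normalization. The authors made stranded mRNA libraries, read 75 cycles, trimmed with Cutadapt, aligned with STAR 2.5.2b to GRCh38.p12 and counted with bedtools every read over a gene's extent in GENCODE 28, introns included, so reads in overlapping genes count for each. All 18 libraries were mapped from the titles and were fitted in R 4.3.3 with edgeR 4.0.16 (filterByExpr on 6 groups, TMM, quasi-likelihood test, Benjamini-Hochberg adjustment over the 15475 genes tested). DESeq2 1.42.0 and the other settings of the closing section were alternatives. Differences between responses used the adjusted p alone. CPM are TMM-normalised, exon lengths and 75-base stretches come from GENCODE 44, and 1 count is worth about 0.0232 to 0.0304 CPM. The fits were tested on simulated counts.

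Libraries come from repeats of the experiment with no other label, so p-values measure the spread between these libraries. The authors give replicate numbers in the titles. Control and HGF libraries of the same number deviated from their group means together in every pair. Their correlations across genes were 0.161 to 0.454 in Detroit 562, 0.376 to 0.563 in FaDu and 0.203 to 0.332 in SCC-9. Libraries of different numbers gave -0.381 to 0.218, -0.489 to 0.139 and -0.240 to -0.0795, which overlaps the former in Detroit 562 only. The numbers were therefore taken to pair the libraries within a line, less clearly in Detroit 562. Same-numbered controls of Detroit 562 and FaDu gave 0.0999 to 0.326, and those of different numbers gave -0.277 to 0.125. Same-numbered controls of either line and SCC-9 gave -0.107 to 0.108.

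Genes given by library were those called with HGF or whose response differed between lines, with or without the block, and the 8 with the widest range between untreated lines. Other genes come from lists of electron donors, regulators, sterol synthesis, epoxide hydrolases, other P450 genes and cell type markers. 1 listed gene is not reported here and was left out of the counts of its list. The members and lists were chosen with earlier results of these data known.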

Additional observations from a re-analysis of the deposited data

Results flagged for a closer look

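The HGF response differed between lines in 7 of the P450 genes by a test of the difference itself, in every case with Detroit 562 the lower. With the replicate block 7 of the 29 genes differed from SCC-9, where 26.9% of all genes did, and 3 differed from FaDu, where 19.1% did, so neither count was above the share of all genes. Without the replicate block the test of edgeR gave this for CYP4B1 against SCC-9 (log2 -3.14, SE 0.629, adjusted p = 0.0490). With the block the edgeR difference from SCC-9 was log2 -3.14 for CYP4B1 (SE 0.317, adjusted p = 5.08e-05), -1.41 for CYP4X1 (SE 0.289, adjusted p = 0.00417) and -3.80 for CYP4Z1 (SE 1.14, adjusted p = 0.0322). Further differences from SCC-9 were log2 -3.49 for CYP2W1 (SE 0.958, edgeR adjusted p = 0.0207), -1.51 for CYP3A5 (SE 0.577, edgeR adjusted p = 0.0809), -0.49 for CYP2S1 (SE 0.192, edgeR adjusted p = 0.0877) and -0.51 for CYP24A1 (SE 0.112, edgeR adjusted p = 0.00675). From FaDu the blocked difference was log2 -1.97 for CYP2W1 (SE 0.381, edgeR adjusted p = 0.00478), -0.60 for CYP2S1 (SE 0.136, edgeR adjusted p = 0.0120) and -0.72 for CYP24A1 (SE 0.115, edgeR adjusted p = 0.00161). CYP2W1, CYP3A5 and CYP4Z1 had at most 9 counts in any SCC-9 library, too few to measure a response there, and CYP4Z1 reached the count limit only with the Detroit 562 controls. Groups of 3 libraries were not searched for single libraries far from the rest.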

How the results depend on the processing

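The replicate block raised the count of called P450 genes from 0 to 8 in FaDu (all genes 0.0258% to 5.6%), from 0 to 3 for the difference between Detroit 562 and FaDu (all genes 0.239% to 19.1%) and from 1 to 7 for that between Detroit 562 and SCC-9 (0.924% to 26.9%). It gave 16 in place of 14 in Detroit 562. DESeq2, with or without its prior, called 1 in FaDu and 3 for Detroit 562 against SCC-9, and with the prior 1 for Detroit 562 against FaDu. The stricter threshold (adjusted p below 0.05, log2 of at least 1) left 8 in Detroit 562. Leaving out each library in turn gave 9 to 15 called in Detroit 562, 0 to 2 in FaDu, 0 to 1 for Detroit 562 against FaDu and 0 to 4 for Detroit 562 against SCC-9. All fits that left out a library, here and above, were run without the block and so did not use the pairing. SCC-9 and the difference between FaDu and SCC-9 stayed at 0 calls in every such fit. The cause of these changes was not tested. Between untreated lines a replicate block shared by the lines gave 22, 27 and 21 calls in place of 21, 27 and 21. With at least 50 counts in 3 libraries 22 of the 29 genes were tested, and 11 were called in Detroit 562. Detroit 562 gave 14 calls with DESeq2 size factors and 13 without a filter, where CYP2E1 was lost (edgeR adjusted p = 0.136). No fold change called with or without the block changed its direction under these alternatives. Genes with a few counts per library could not show changes of small size at this depth.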

Other observations

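Genes that serve or steer the P450 enzymes were read from lists of a few genes each. Of the electron donors, 8 of 9 were tested and 1 was called in Detroit 562 with HGF, FDXR, the reductase of the mitochondrial enzymes, at 25.8 ± 5.21 CPM in control and 17.6 ± 5.31 CPM with HGF (SD, n = 3, log2 -0.55, edgeR adjusted p = 0.0342). POR was not called, at 50.7 ± 0.562 and 52.0 ± 4.14 CPM (log2 0.04). Of 13 regulators 9 were tested and 6 were called lower in Detroit 562. Among them were the retinoic acid receptors RARB, from 1.22 ± 0.221 to 0.306 ± 0.0317 CPM (log2 -1.99, edgeR adjusted p = 0.000451), and RARG (log2 -0.68, edgeR adjusted p = 0.0112). RARB had only 11 counts in each HGF library. The receptor RARA went the other way and stayed under the fold limit (log2 0.24, edgeR adjusted p = 0.0480). The others called lower were RXRA (log2 -0.59), RXRB (log2 -0.40), PPARA (log2 -0.49) and SREBF2 (log2 -0.75). The liver regulators HNF4A, NR1I2, NR1I3 and NR1H4 had at most 10 counts in any library. The share of all genes called in Detroit 562 was 17.9%, and the share called lower was 11.7%.

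The family 1 genes CYP1A1 and CYP1B1 had negative estimates in all 3 lines. CYP1B1 went from 32.4 ± 3.87 to 16.5 ± 2.22 CPM in Detroit 562 (SD, n = 3, log2 -0.97, edgeR adjusted p = 0.00948), and its changes in FaDu and SCC-9, log2 -0.60 and -0.68, were called only with the replicate block (edgeR adjusted p = 0.0112 and 0.000634). CYP1A1 had log2 changes of -0.46, -0.58 and -0.67, also called only with the block (edgeR adjusted p = 0.0176, 0.0303 and 0.00791). Of the P450 genes with other names, PTGIS, the prostacyclin synthase, had 28 to 39 counts in SCC-9 controls and 9 to 18 with HGF (log2 -1.40, edgeR adjusted p = 0.731 without the block and 0.0163 with it).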
